A study of Mus musculus with 8 samples.

Results

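The imprinted growth genes H19, Dlk1, Meg3, Peg3, Mest, Cdkn1c, Nnat, Ndn, Magel2 and Plagl1 were followed through mesenchymal cells of the embryonic mouse forelimb. They were taken by symbol, 10 of the 28001 genes counted. Unique molecular identifiers (UMIs, each standing for 1 captured mRNA molecule) were used as deposited, from cells with at least 3000 UMIs and at most 10% mitochondrial UMIs, which left 53085 of 57469 barcodes in 8 libraries. All levels are UMIs per 1000000 UMIs of the cells named (CPM), and all 10 genes were detected in every library.

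A genomically imprinted gene is expressed from the copy of 1 parent, while the other copy is kept silent by marks set in the germ line. H19, Meg3 and Cdkn1c are known as maternally expressed and the other genes of the set as paternally expressed. As a network they are known for controlling fetal growth, and many are abundant in embryonic mesenchyme and decline after birth. The embryos were of an inbred strain and only gene totals were counted, so the parental copy in use was not measured.

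The sorted libraries held tdTomato+ cells of C57BL/6J embryos labelled Hic1CreERT2/CreERT2;Rosa26LSLtdTomato/tdTomato, whose dams received 7.5 mg of tamoxifen at E10. The recombinase is driven from the Hic1 locus, so the reporter marks cells that expressed Hic1 around that time together with their descendants. There was 1 sorted library each of forelimbs at E11.5, E12.5, E13.5 and E14.5, and at E16.5 there was 1 of a proximal segment with the elbow and 1 of a distal segment with the paw. The remaining 2 libraries, called whole limb here, are replicates of E11.5 forelimb cells both positive and negative for tdTomato. Their dams received the same tamoxifen, and the study's methods use the same line name for them. Limbs of several embryos were pooled for a library, forelimb pairs of E16.5 were split into the segments, so these may share embryos, blood and endothelial cells were removed by sorting, and the capture kit changed from v2 to v3 between E13.5 and E14.5. In what follows, 6 values of a gene stand for the sorted libraries in order of stage, with the proximal segment of E16.5 before the distal one, and 2 values for whole limb replicates 1 and 2.

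The median cell held 6788 to 18473 UMIs across libraries, which shared at most 54 cell barcodes. tdTomato transcripts were at 430.4 to 1411 CPM in the sorted libraries against 3.78 and 4.32 CPM in whole limb cells, and the limb mesenchyme gene Prrx1 was present in all 8 (235 to 700.2 CPM). Clusters of epithelial, endothelial, myogenic or erythroid cells, and 1 unnamed cluster led by keratin genes, were set aside, which left 51261 mesenchymal cells. 1 cluster led by the muscle fibre genes Acta1, Actc1 and Tnnc2 stayed unnamed and held 3082 proximal and 216 distal E16.5 cells. Its leading genes also included Entpd2, Coch and Sult1a1, and the source of its muscle fibre RNA was not tested. The E14.5 library stood apart for H19 and its neighbour Igf2.

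Between E11.5 and E16.5 proximal cells the set split into genes at a higher level, 1 gene at a far lower level and genes that stayed within 2-fold. In E16.5 proximal cells 5 of the 10 were at least 2-fold higher than in E11.5 sorted cells (Plagl1, Dlk1, Cdkn1c, Peg3 and Ndn), where 13.7% of 10725 genes were. Nnat was at least 2-fold lower, where 29.6% of genes were. The median log2 ratio was 0.99 over the set and -0.48 over all genes, and scaling by TMM moved the latter to -0.090. There was 1 library for each stage, so these folds have no replicate check and no test, and their exact 95% intervals cover counting error only. The dissociation enzymes changed between E12.5 and E13.5, the kit between E13.5 and E14.5, and the region from whole forelimbs to segments between E14.5 and E16.5. At its step, each of these cannot be told apart from stage. E16.5 distal cells differed from the proximal ones in part, with Mest at 1019 against 2400.1 CPM at E11.5, a further gene at least 2-fold lower, and Ndn at 209 against 134 CPM, no longer 2-fold higher.

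Plagl1 encodes a zinc finger transcription factor that restrains proliferation. Its 6 levels were 31.0, 64.0, 76.2, 217, 788 and 472 CPM. The level was higher at every step to E16.5 proximal, and the E16.5 proximal level was 25.4 (23.9 to 27.1) times that of E11.5. After thinning every cell to 3000 UMIs, cells with at least 1 Plagl1 UMI made up 9.35% of mesenchymal cells at E11.5 and 72.0% at E16.5 proximal (22.9% and 91.8% unthinned). The 619 epithelial-like cells of the latter library, which were set aside, had Plagl1 at 108 CPM. A Plagl1 UMI was in 23.4% of them after thinning, from a median of 45956 UMIs against 18473 over the library. Whether this was RNA of their own or of other cells was not tested.

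Cdkn1c encodes p57, an inhibitor of cyclin-dependent kinases that holds cells out of the cycle. It was at 1331, 1838, 2499, 2753, 5849 and 3092 CPM, again higher at each of the 4 steps to E16.5 proximal, and the last of these was 4.39 (4.35 to 4.44) times the first. Ndn, a MAGE-family protein known to restrain proliferation in neurons, was at 134, 176, 197, 230.1, 299 and 209 CPM and was also higher at each step to E16.5 proximal, while the distal level was below that of E14.5. Its 2.23-fold ratio came to a log2 ratio of 0.97 without the cluster led by muscle fibre genes, just under 2-fold, and to 0.94 with all filtered cells. An increase at all 4 steps was seen for these 3 genes, against 7.45% of 11110 genes, and a decrease at all 4 for 1, against 17.6%.

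Nnat, which encodes a small membrane protein of the endoplasmic reticulum known from developing neurons, was the gene with the lower level. Its levels were 1100.2, 929.6, 713, 451, 46.4 and 61.9 CPM. Both E16.5 segments lay far below the earlier libraries, and E16.5 proximal was 23.7-fold below E11.5. The share of cells with a Nnat UMI, thinned, was 92.5% at E11.5 and 10.5% at E16.5 proximal (98.9% and 28.3% unthinned), with 0.808% in the epithelial-like cells of the latter.

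Dlk1, a transmembrane protein with EGF-like repeats that keeps progenitors undifferentiated, and the long non-coding RNA Meg3 belong to 1 imprinted domain and lie 77.7 kb apart. Dlk1 was at 715, 1422, 1044, 2186, 4323 and 2357 CPM. E16.5 proximal was at 6.05 (5.97 to 6.13) times the E11.5 level, with a dip at E13.5. Meg3 had 2478, 3792, 4097, 3184, 4376 and 4667 CPM and a ratio of 1.77 (1.75 to 1.78), which passed 2-fold with TMM scaling (log2 ratio 1.21).

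Peg3, a large zinc finger protein linked to fetal growth and maternal behaviour, was at 309, 289, 328, 502, 1190.1 and 811 CPM. The first 3 libraries were close to each other, and E16.5 proximal was at 3.85 (3.77 to 3.93) times the E11.5 level. Magel2, a MAGE-family partner of ubiquitin ligases that lies 26.7 kb from Ndn, was the rarest of the set at 8.05, 6.77, 10.8, 9.09, 12.7 and 5.74 CPM. When its 8 libraries were ordered by level, 5 of the 7 neighbouring pairs had overlapping intervals. Of the other 9 genes this held for Dlk1 in the whole limb pair alone.

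H19, a long non-coding RNA that shares enhancers with the growth factor gene Igf2 72.6 kb away, was at 2592, 2504, 2255, 1008, 1708 and 2218 CPM. The E14.5 level was 2.24-fold below that of E13.5 and 1.69-fold below that of E16.5 proximal. Igf2 had a dip at E14.5 too, at 2019.8, 1685, 2144, 575, 1756 and 2208 CPM. Within mitotic-like cells, the class found in every sorted library, H19 was at 1655, 812 and 1466 CPM from E13.5 to E16.5 proximal, but these cells sat mostly in different clusters by stage (1104 E13.5 cells in 1, 801 E14.5 cells in another and 803 E16.5 proximal cells in a further one). H19 was at 1264 and 1279 CPM in tenocyte-like and 678 and 715 CPM in dermal fibroblast-like cells of E14.5 and E16.5 proximal, again mostly in clusters that differed by stage (1275 and 668 tenocyte-like and 1157 and 1093 dermal fibroblast-like cells). The E14.5 tenocyte-like cells are a mixed group by their markers, since their main cluster raised 7 of 7 tenocyte and 3 of 8 chondrocyte markers and was led by Six2, Otor, Mia and Matn4, with Tnmd and Htra3 further down. Igf2 did differ between E14.5 and E16.5 proximal in these classes. It was at 626 and 1572 CPM in tenocyte-like and 410 and 745 CPM in dermal fibroblast-like cells. In mitotic-like cells it was at 1850, 468 and 1449 CPM from E13.5 to E16.5 proximal. Stage and library cannot be told apart at E14.5. Mest, an enzyme-like protein of the alpha/beta hydrolase fold whose loss slows fetal growth, was at 2400.1, 2335, 2300.4, 2071, 2139.7 and 1019 CPM. Between E11.5 and E16.5 proximal its log2 ratio was -0.17, and 0.22 with TMM scaling, which turned its direction. The same scaling took Magel2, like Meg3, past 2-fold (log2 ratio 1.05).

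**Figure D1:**
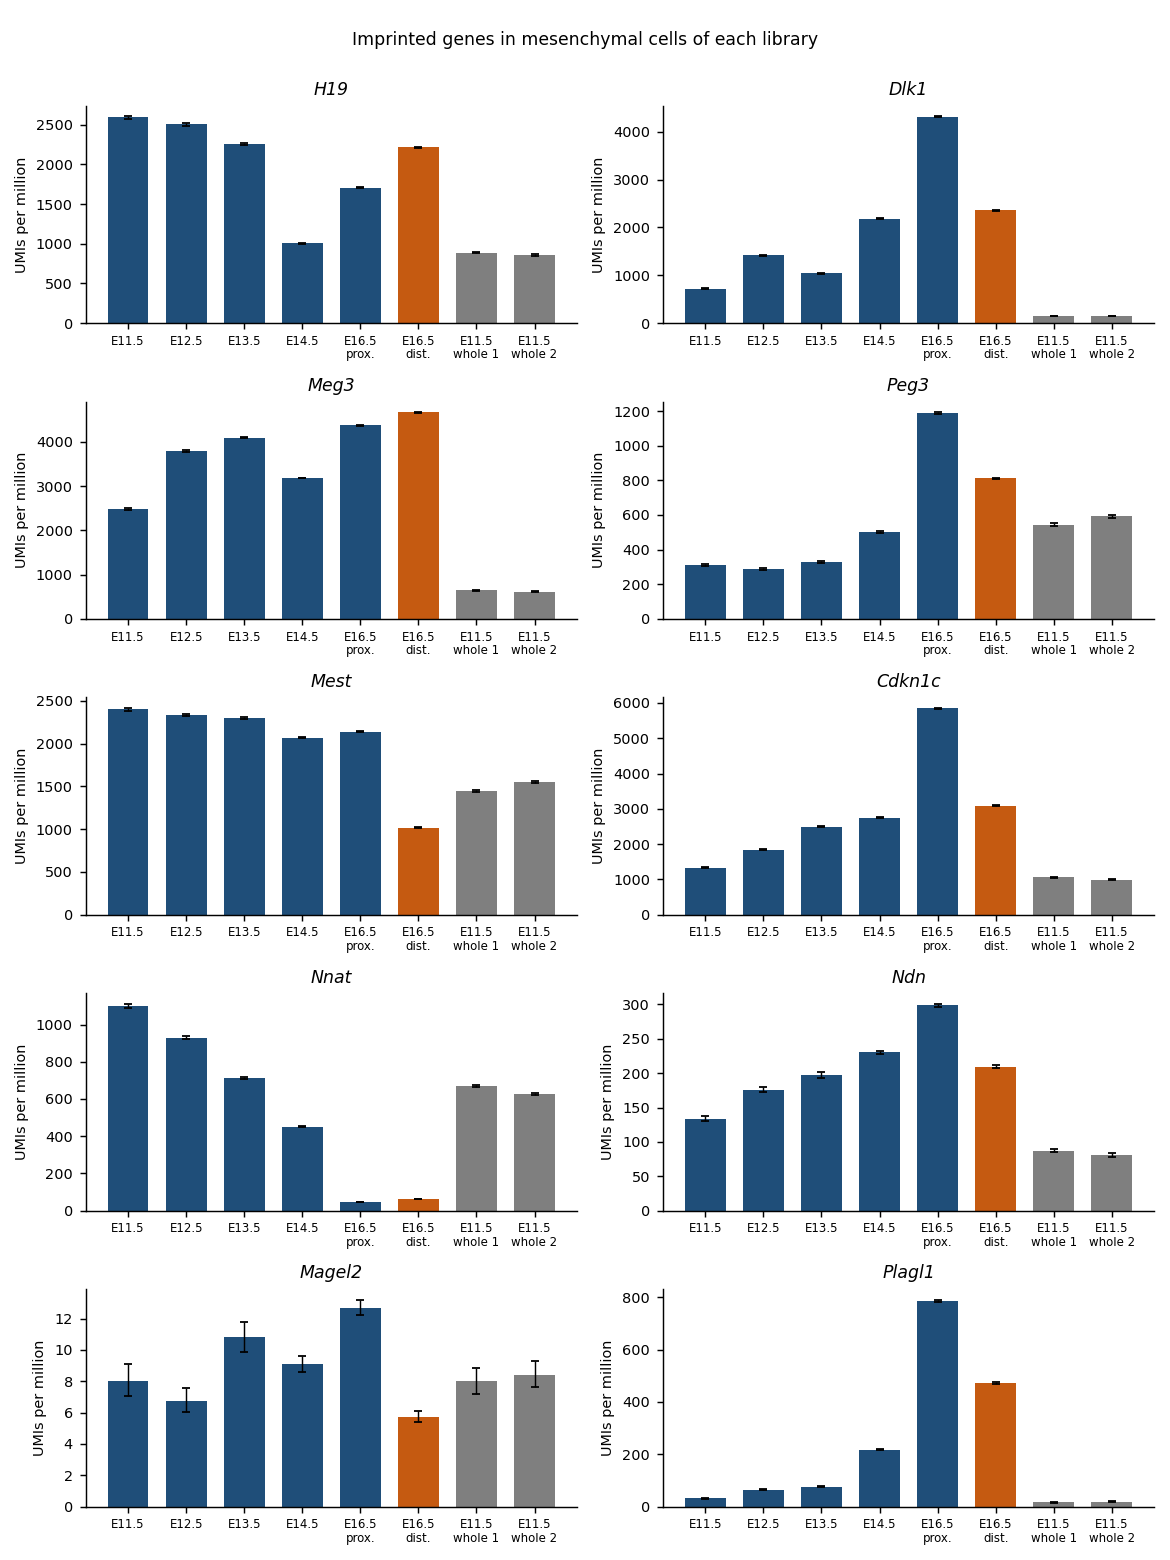
Bars give the level of each gene (CPM, linear axis from 0) in mesenchymal cells of the 6 sorted and 2 whole limb libraries, with exact 95% counting intervals. Plagl1 goes from 31.0 to 788 CPM and Nnat from 1100.2 to 46.4 CPM between E11.5 and E16.5 proximal, and H19 dips to 1008 CPM at E14.5.

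Single steps held from 0 to 4 changes of 2-fold among the 10 genes. From E11.5 to E12.5, 1 of the 10 passed, Plagl1, which was 2.06-fold higher (4.30% of 10260 genes passed in either direction). It was under 2-fold when cells were thinned to 3000 UMIs (log2 ratio 0.93), when each cell's own CPM was averaged (0.90) and in cells with no mitotic marker (0.96), and Dlk1, 1.99-fold as reported, passed in these (1.04, 1.05 and 1.06). From E12.5 to E13.5 none passed (4.08% of 10367 genes). At the step to E14.5, Plagl1 (2.85-fold) and Dlk1 (2.09-fold) were higher and H19 lower (11.6% of 10514 genes), the last being under 2-fold with TMM scaling (log2 ratio -0.94). At the step to E16.5 proximal, Plagl1 (3.63-fold), Peg3 (2.37-fold) and Cdkn1c (2.12-fold) were higher and Nnat 9.72-fold lower (12.6% of 10298 genes). Without the cluster led by muscle fibre genes Cdkn1c was under 2-fold there (log2 ratio 0.92), as with all filtered cells (0.89). Dlk1 lay just under the limit at this step (1.98-fold) and passed it with TMM scaling (log2 ratio 1.21), with thinned cells (1.10), with each cell's own CPM averaged (1.09) and with a total without mitochondrial, ribosomal protein, haemoglobin and histone genes (1.00).

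The other imprinted genes on a list of 45 served for comparison, 43 of them with a row in the files. Between E16.5 proximal and E11.5, 36 of them reached 5 CPM, of which 10 were 2-fold higher and 9 lower. Zim1, a neighbour of Peg3, was at 81.9 against 1.66 CPM, a ratio of 49.3 (37.6 to 66.1). Phactr2 was at 169.8 against 44.7 CPM, while Asb4 was at 36.5 against 262 CPM and Tssc4 at 31.6 against 76.1 CPM. Igf2r, the receptor that clears Igf2, was 3.72-fold higher, the G protein subunit gene Gnas 2.85-fold and the growth restrainer Grb10 1.17-fold.

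At E16.5 the distal cells held less of most of the set than the proximal cells. Mest, with a ratio of 0.476 (0.474 to 0.479), and Magel2, with 0.452 (0.418 to 0.488), were at least 2-fold lower, where 2.56% of 10148 genes were, and none was 2-fold higher, where 4.49% were. Cdkn1c (0.529), Dlk1 (0.545), Plagl1 (0.599), Peg3 (0.681) and Ndn (0.701) had ratios under 1. H19 (1.30) and Nnat (1.33) had ratios over 1, and Meg3 went from 1.07 to a log2 ratio of -0.045 with TMM scaling. The summed level of 7 muscle fibre markers, all detected in both, was 63.5 CPM proximally and 11.02 CPM distally. Without the cluster led by such genes, Mest was at 987 against 1863 CPM and Magel2 at 5.38 against 9.48 CPM, so neither reached 2-fold, nor did they with all filtered cells (log2 ratios -0.87 and -0.95). With TMM scaling Dlk1 (-1.01) and Cdkn1c (-1.06) passed 2-fold too. The proximal cells of that cluster had Cdkn1c at 7455, Dlk1 at 5783, Plagl1 at 1065 and Mest at 2817 CPM. Among 34 other imprinted genes, 1 was 2-fold higher and 3 were lower, among them Phactr2 with 83.7 against 169.8 CPM.

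In 6 cell classes with at least 50 cells in both segments, H19, Mest and Ndn kept their direction throughout. H19 was higher distally in all 6, from a ratio of 1.26 in dermal fibroblast-like cells to 2.06 in fibroblast-like cells, and Igf2 was too (1.24 to 1.66). Mest was lower in all 6, from 0.440 in fibroblast-like to 0.728 in tenocyte-like cells. Dlk1 ran from 0.501 in chondrocyte-like cells to 1.00 (0.984 to 1.02) in pericyte-like cells. For Cdkn1c the range was 0.491 in mitotic-like to 1.01 (0.992 to 1.03) in pericyte-like cells, and for Plagl1 0.463 in tenocyte-like to 1.05 (0.993 to 1.11) in pericyte-like cells. The pericyte-like intervals of these 3 genes included 1. Ndn was under 1 in all 6 classes, from 0.645 in tenocyte-like to 0.974 (0.905 to 1.05) in pericyte-like cells. Peg3 ran from 0.664 in chondrocyte-like to 1.14 (1.09 to 1.19) in pericyte-like cells. Nnat ran from 0.694 in tenocyte-like to 1.39 in fibroblast-like cells. It was over 1 there and in mitotic-like cells (1.26) alone. Magel2 ran from 0.381 (0.226 to 0.614) in pericyte-like to 1.10 (0.859 to 1.39) in chondrocyte-like cells, so it did not keep its direction. Its interval also included 1 in tenocyte-like cells (0.589, 0.321 to 1.04). Meg3 ran from 0.901 in tenocyte-like to 1.27 in dermal fibroblast-like cells. Different clusters held most of 2 classes in the segments, so their ratios set unlike groups of cells side by side. Fibroblast-like cells were mainly in 1 cluster of 1787 proximal and 140 distal cells and another of 20 and 494. Chondrocyte-like cells were mainly in 1 cluster of 977 proximal and 84 distal cells and another of 0 and 200. All classes came from the same 2 libraries and are not replicates of a segment.

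**Figure D2:**
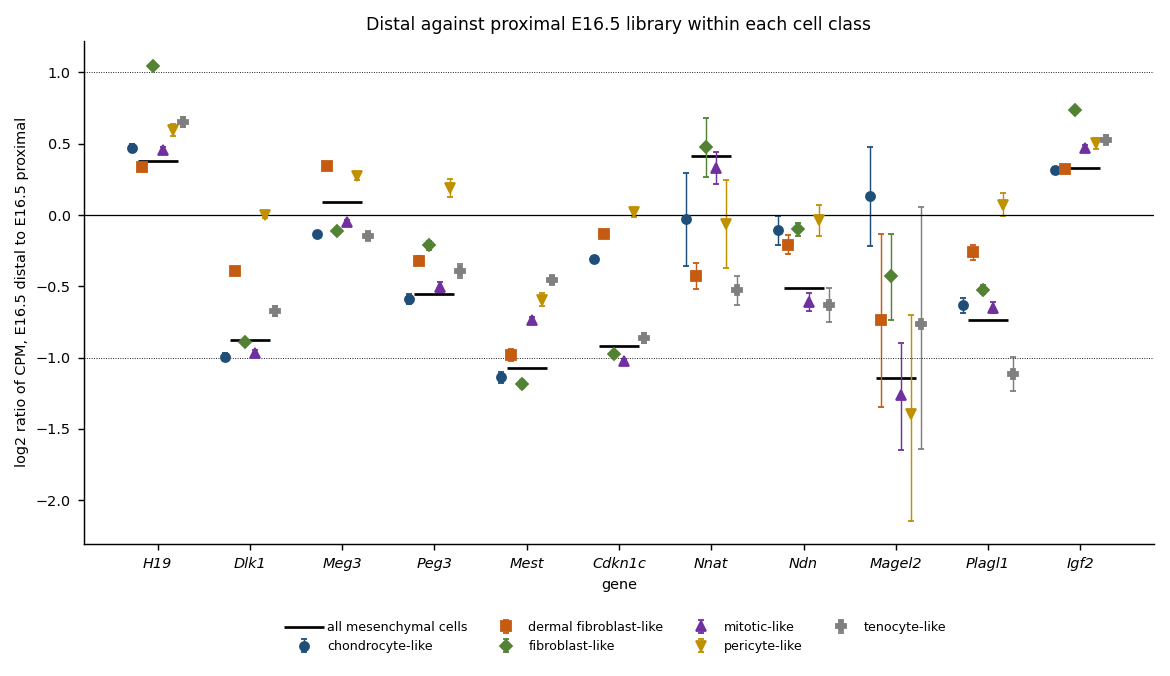
The log2 ratio of CPM in E16.5 distal to E16.5 proximal cells is drawn for each gene and Igf2 within 6 cell classes, with exact 95% counting intervals, and as a black bar for all mesenchymal cells. Dotted lines mark 2-fold. H19 lies above 0 and Mest below 0 in every class, and the pericyte-like points of Dlk1, Cdkn1c and Plagl1 lie near 0.

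At E11.5, tdTomato+ cells of 1 library were set against whole limb cells of 2. Sorted cells held more Dlk1, Meg3, H19, Plagl1, Nnat, Mest and Ndn and less Peg3. edgeR's quasi-likelihood test called these 7 genes higher, where 26.9% of 15071 genes were, and 1 lower, where 26.5% were (53.4% in either direction). The median log2 fold change was 0.54 over the set and 0.012 over all genes. The fit has 1 residual degree of freedom, and the lone sorted library is assumed to vary like the whole limb pair. The spread among sorted libraries was not measured, so the p-values rest on the whole limb pair alone and compare these 3 libraries. Dlk1 was at 715 CPM in sorted cells against 149 and 145 CPM in whole limb (log2 fold change 2.10 ± 0.10, adjusted p = 6.05e-89). Meg3 was at 2478 against 644 and 616 CPM (1.80 ± 0.12, adjusted p = 8.53e-45) and H19 at 2592 against 886 and 856 CPM (1.39 ± 0.13, adjusted p = 7.73e-26). All 3 lay outside the range of the whole limb pair. Peg3 lay on the other side, at 309 against 545 and 592 CPM (-1.06 ± 0.12, adjusted p = 1.82e-17).

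Plagl1 (0.70), Nnat (0.58), Mest (0.50) and Ndn (0.49) had smaller log2 fold changes. Cdkn1c (0.20, adjusted p = 0.189) and Magel2 (-0.21, adjusted p = 0.273) did not pass. The Plagl1 call was lost when cells of other lineages were kept (log2 fold change 0.15). Myogenic-like cells of the whole limb held Plagl1 at 103 and 128 CPM, and their part was not tested. Dividing cells differed in number: 2794 of 5104 and 2938 of 5336 whole limb cells carried at least 3 mitotic markers, against 1185 of 3156 sorted cells. In cells with no mitotic marker ratios of sorted cells to whole limb replicates 1 and 2 were smaller for all 7 genes called higher, among them 2.51 and 2.76 for Meg3 (3.85 and 4.03 in all mesenchymal cells), 2.12 and 2.30 for H19 (2.93 and 3.03), and 1.20 and 1.16 for Mest (1.66 and 1.55). There Dlk1 was at 784 CPM in sorted cells against 241 and 212 CPM, and Peg3 at 329.8 CPM in sorted cells against 762 and 830.1 CPM. There Plagl1 was at 31.6 CPM in sorted cells against 29.5 and 29.4 CPM, and Cdkn1c at 1454 CPM in sorted cells against 1947 and 1748 CPM, the order of the latter being turned. Cells with no mitotic marker numbered 1116 in the sorted and 740 and 767 in the whole limb libraries. No test was run on them, and the part of dividing cells was not tested. The whole limb libraries also held distal limb mesenchyme-like cells, with Dlk1 at 33.3 and 25.6 CPM and Meg3 at 224 and 197 CPM. Their unnamed cluster led by En1, Rarres2 and Gdnf (68 and 59 cells) was much closer to sorted cells. It held Meg3 at 1988 and 2167 CPM and H19 at 2198 and 2171 CPM. The highest Dlk1 level of a whole limb cluster was 532 and 528 CPM. The study describes Hic1 at E11.5 as limited to proximal limb mesenchyme, and the part of position or cell type in these differences was not tested. Among 40 other imprinted genes, 13 were called higher and 6 lower, led by Igf2 (1.70) and Blcap (0.79), which overlaps Nnat, on one side and Asb4 (-1.07) and Kcnq1ot1 (-0.77) on the other. Igf2r, Grb10 and Gnas did not pass.

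Which cells carry these genes was then asked within each library. Cells with at least 3 markers of a class, called at 3000 UMIs a cell, were compared with cells that had none of them, with the library as a block in edgeR. A cell without markers can enter several comparisons, so the comparisons are not independent of each other. The E16.5 segments, which may share embryos, entered as separate blocks. A marker cell is not always in a cluster named for the class, and where few are this is given beside the result. All 10 genes were tested in each.

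Cells with mitotic markers held less of most of the set. 8 genes were called lower, where 24.5% of 13794 genes were, and 0 higher, where 20.5% were (45.0% in either direction), no gene having a log2 fold change over 0, with a median of -0.32 against -0.047 over all genes. H19 was at 2118, 1820.3, 1637, 737, 1331 and 1539.5 CPM in mitotic cells of the 6 sorted libraries and 3183, 2877, 2519.8, 1081, 1857 and 2357 CPM in cells without mitotic markers. It was lower in 8 of 8 libraries, whole limb included (-0.65 ± 0.050, adjusted p = 2.41e-06). Meg3 (-0.56), Dlk1 (-0.56), Cdkn1c (-0.52), Ndn (-0.31), Peg3 (-0.25) and Mest (-0.22) were lower in 8 of 8 libraries too, and Magel2 (-0.27) in 7. The Magel2 call was lost against cells with fewer than 3 markers (adjusted p = 0.0707) and without the cluster led by muscle fibre genes (adjusted p = 0.0973). Marker cells in mitotic-like clusters ranged from 383 of 831 in E16.5 distal to 1133 of 1185 in E11.5 sorted cells, and no whole limb cluster had that name. Of the whole limb marker cells 1229 of 2794 and 1152 of 2938 were in distal limb mesenchyme-like clusters. The log2 ratio within a library ran from -0.90 in whole limb replicate 1 to -0.19 in E11.5 sorted cells for Meg3, and from -0.90 to -0.29 in the same libraries for Dlk1. The part of cell type in these ratios was not tested. Erythroid markers summed to 0.0698 to 4.46 CPM against 0.161 to 51.4 CPM (marker cells first), and their part was not tested. The cycle inhibitor Cdkn1c still had 1212, 1492, 2067, 2112, 5054 and 2478 CPM in mitotic cells. The Mest call was lost without E14.5, E16.5 proximal or either whole limb library (adjusted p from 0.0531 to 0.0679). Plagl1 (-0.33, adjusted p = 0.0540) and Nnat (-0.016, adjusted p = 0.901) did not pass, Nnat being higher in dividing cells of both E16.5 libraries and lower in the other 6. Plagl1 was called with DESeq2 (adjusted p = 0.0227) and in edgeR without E12.5 or E13.5 (adjusted p = 0.0256 and 0.0202). Among 39 other imprinted genes, 20 were called lower, Igf2 (-0.48) and H13 (-0.48) most, and 3 higher, with Tssc4 (0.38) and Commd1 (0.27) first. Igf2r (-0.23), Grb10 (-0.28) and Gnas (-0.26) were lower.

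Cells with dermal fibroblast markers held less of most of the set, with 9 genes called. In the 4 sorted libraries from E13.5 on, 8 genes were called lower in cells with dermal markers such as Lef1, Twist2 and Axin2, where 12.1% of 14054 genes were. Nnat was called higher, where 9.17% were (21.3% in either direction). The median was -1.58 against -0.024 over all genes. Mest was at 1276, 971, 315 and 131 CPM in dermal marker cells, in order of stage and with the proximal segment first, and at 2311, 2274, 2449 and 1264 CPM in cells without these markers (-2.07 ± 0.41, adjusted p = 0.0129). The log2 ratio within a library was -0.86 at E13.5 and -3.28 in E16.5 distal cells. H19 was at 876, 413, 427 and 468 against 2304, 1080.5, 1891 and 2632 CPM (-1.84 ± 0.19, adjusted p = 9.45e-04). Dlk1 was at 631, 989.9, 920.3 and 416 against 1113, 2376, 4788 and 2849 CPM (-1.80 ± 0.30, adjusted p = 0.00671). All 3 genes were lower in 4 of 4 libraries.

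Magel2 (-2.71 ± 0.25, adjusted p = 6.34e-04), Plagl1 (-2.001 ± 0.24, adjusted p = 0.00189), Cdkn1c (-1.36 ± 0.17), Meg3 (-1.03 ± 0.19) and Ndn (-0.81 ± 0.14) were lower in 4 of 4 libraries as well. The Magel2 change rests on low counts. In dermal fibroblast-like clusters Magel2 was at 2.35 CPM at E14.5, 2.59 CPM in E16.5 proximal and 1.55 CPM in E16.5 distal cells. Nnat was at 1017, 523, 95.9 and 86.6 against 713, 433, 40.5 and 57.8 CPM, higher in 4 of 4 (0.67 ± 0.17, adjusted p = 0.0297). Of the marker cells 474, 551 and 633 were in dermal fibroblast-like clusters from E14.5 on, but 3 of 63 at E13.5. With 2 markers in place of 3 the log2 fold changes of all 8 lower genes were smaller by over 1.5 times, at -0.89 for H19, -0.99 for Dlk1, -1.55 for Magel2, -0.65 for Cdkn1c, -0.57 for Meg3 and -0.49 for Ndn. Mest (-0.95, adjusted p = 0.0795) and Plagl1 (-0.78, adjusted p = 0.0910) were then not called. The whole limb libraries, which were not sorted for tdTomato, were no part of this test and held 124 and 100 marker cells, 0 and 0 of them in such a cluster. With both added 6 genes of the set were called, where 1896 of 13491 genes were. The edgeR calls of Dlk1 (-1.18, adjusted p = 0.0750), Meg3 (-0.67, adjusted p = 0.0747) and Mest (-1.36, adjusted p = 0.0796) were then lost. The Nnat call was lost without E13.5 (adjusted p = 0.0509), where 63 cells had the markers, and that of Mest without E16.5 proximal (adjusted p = 0.0520). Peg3 did not pass (0.049, adjusted p = 0.899), with 517, 630.2, 856 and 683 against 314, 502, 1278 and 846 CPM, higher in E13.5 and E14.5 and lower in both E16.5 libraries. Neuronal markers summed to 19.5 to 146 CPM against 19.6 to 111 CPM and erythroid ones to 0 to 3.75 CPM against 0.0988 to 69.8 CPM (marker cells first), and their part was not tested. The 7 muscle fibre markers summed to 4.39 to 27.0 CPM in dermal marker cells and 4.05 to 74.7 CPM in the others. Without the cluster led by muscle fibre genes the same 9 genes were called, Plagl1 at -1.90, adjusted p = 0.00247 and Cdkn1c at -1.27, adjusted p = 0.00274. Among 41 other imprinted genes, 15 were called lower and 2 higher. Peg10 (-2.03), Ppp1r9a (-1.77), Igf2 (-1.64), Grb10 (-0.87), Igf2r (-0.85) and Gnas (-0.57) were among those lower.

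Cells with connective tissue fibroblast markers were rich in Dlk1, Plagl1 and Cdkn1c. In cells with markers such as Pi16, Dpp4 and Clec3b, from E14.5 and both E16.5 libraries, Dlk1, Plagl1, Cdkn1c, Ndn and Meg3 were called higher, where 7.52% of 15621 genes were. Nnat was called lower, where 7.84% were (15.4% in either direction), and the median was 0.63 against -0.046 over all genes. Cdkn1c was at 5105, 8896 and 4445 against 2514, 3877 and 2107 CPM (1.16 ± 0.072, adjusted p = 5.20e-04), and Dlk1 at 6867, 5541 and 3455 against 1832, 3235 and 1480.0 CPM (1.36 ± 0.20, adjusted p = 0.00958). Both were higher in 3 of 3 libraries, as were Plagl1 (1.30 ± 0.15), Ndn (0.92 ± 0.087) and Meg3 (0.87 ± 0.12). Nnat was at 246, 13.2 and 24.9 against 459, 79.8 and 85.2 CPM (-1.72 ± 0.30, adjusted p = 0.0148), lower in 3 of 3. H19 (0.29, adjusted p = 0.155), Mest (0.22, adjusted p = 0.0903), Magel2 (0.39, adjusted p = 0.192) and Peg3 (0.051, adjusted p = 0.788) did not pass, and H19 was called when E16.5 proximal was left out (adjusted p = 3.83e-04). With 2 markers in place of 3 the Nnat call was lost (-1.22, adjusted p = 0.0700). Neuronal markers summed to 18.2 to 142 CPM against 15.9 to 73.2 CPM and erythroid ones to 0 to 1.33 CPM against 0.576 to 130.3 CPM (marker cells first), and their part was not tested. Marker cells in fibroblast-like clusters numbered 2 at E14.5, 1271 in E16.5 proximal and 548 in E16.5 distal cells. The E14.5 library held 55 of these marker cells. The remaining libraries of this test are the E16.5 segments, so they may not be independent. Among 41 other imprinted genes, 11 were called higher and 1 lower, with Phactr2 (1.04) and Slc38a4 (1.00) first. Igf2 (0.44), Grb10 (0.37) and Gnas (0.37) were higher, and Igf2r did not pass.

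Cells with chondrocyte markers, such as the collagen gene Col2a1 and Acan, were rich in Peg3. At E16.5 1050 of 1270 proximal and 320 of 497 distal marker cells were in chondrocyte-like clusters, against 6 in all 4 earlier libraries. There they lay mostly in early mesenchymal progenitor-like clusters at E11.5 and E12.5 (88 of 129 and 222 of 359), perichondrial-like ones at E13.5 (956 of 1283) and tenocyte-like ones at E14.5 (501 of 719). Over the 6 sorted libraries 2 genes of the set were called higher, where 8.81% of 13661 genes were, and 1 lower, where 14.9% were (23.7% in either direction). Peg3 was at 397, 353, 491, 892, 1889 and 1205 CPM in marker cells against 295, 273, 285, 457, 1090.2 and 802 CPM, higher in 6 of 6 libraries (0.65 ± 0.10, adjusted p = 0.00212). Nnat was lower in 6 of 6 (-0.73 ± 0.082, adjusted p = 5.20e-04). H19 was higher in 4 of 6 (0.44 ± 0.14, adjusted p = 0.0483), and its call was lost without E13.5, without E14.5 or without either segment of E16.5 (adjusted p from 0.0901 to 0.113). It was also lost, with a fold change about as large, without the highest doublet scores (0.46, adjusted p = 0.0570), at 5000 UMIs a cell (0.44, adjusted p = 0.0509) and without the muscle-led cluster (0.49, adjusted p = 0.0529), and with a smaller one with 2 markers (0.31, adjusted p = 0.0627) and with no filter on low counts (0.38, adjusted p = 0.0748). Nnat was at -0.30 with 2 markers (adjusted p = 0.0263). Glial markers summed to 4.11 to 30.3 CPM against 3.19 to 7.24 CPM and erythroid ones to 0 to 0.866 CPM against 0.119 to 79.2 CPM (marker cells first). Muscle fibre markers summed to 4.84 to 18.4 CPM against 3.32 to 72.9 CPM and neuronal ones to 7.91 to 42.6 CPM against 10.7 to 103 CPM. The part of these markers was not tested. Dlk1 was lower in 6 of 6 libraries, from a log2 ratio of -2.34 at E11.5 to -0.17 at E14.5, and did not pass in edgeR (-0.90 ± 0.32, adjusted p = 0.0763), while DESeq2 called it (adjusted p = 0.0138). With both whole limb libraries added (198 and 207 marker cells) it was called in edgeR too (-1.12, adjusted p = 0.0198), and the calls of Peg3, Nnat and H19 were kept (adjusted p = 2.25e-04, 4.88e-04 and 0.00958). Among 39 other imprinted genes, 4 were called higher, Usp29 (0.98) and Zim1 (0.88) first, both of them neighbours of Peg3. Those called lower numbered 7 and included Slc38a4 (-0.63) and Commd1 (-0.24), while Igf2, Igf2r, Grb10 and Gnas did not pass.

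Cells with tenocyte markers, such as the tendon genes Scx and Tnmd, held more Mest and less Cdkn1c and Plagl1. In the 5 libraries from E12.5 on, 1 gene was called higher, where 6.58% of 13847 genes were, and 3 lower, where 7.29% were (13.9% in either direction). Mest was at 2957, 2906, 2806, 2572 and 1551 CPM against 2187, 2131, 1806, 1928 and 954 CPM, higher in 5 of 5 libraries (0.57 ± 0.070, adjusted p = 0.00139). Cdkn1c was at 1184, 1622, 1602, 3293 and 1593 against 1967, 2744, 2864, 5769 and 3089.7 CPM, lower in 5 of 5 (-0.77 ± 0.047, adjusted p = 8.40e-05). Plagl1 (-1.01 ± 0.11, adjusted p = 0.00101) and Magel2 (-0.86 ± 0.15, adjusted p = 0.00619) were also lower in 5 of 5. With 2 markers in place of 3 all 4 were called with smaller log2 fold changes, at 0.37 for Mest, -0.38 for Cdkn1c, -0.35 for Plagl1 and -0.48 for Magel2. Endothelial markers summed to 10.2 to 63.0 CPM against 7.97 to 16.2 CPM and erythroid ones to 0 to 1.77 CPM against 0.166 to 60.3 CPM (marker cells first), and their part was not tested. The 7 muscle fibre markers summed to 4.28 to 31.0 CPM in tenocyte marker cells and 4.93 to 67.0 CPM in the others. Without the muscle-led cluster the same 4 genes were called, Cdkn1c at -0.73, adjusted p = 1.48e-04, Plagl1 at -0.95, adjusted p = 9.29e-04 and Magel2 at -0.77, adjusted p = 0.0126. Of the marker cells 0 of 96 at E12.5 and 1 of 447 at E13.5 were in tenocyte-like clusters, against 467 of 741 at E14.5 and 597 of 1140 and 303 of 633 in the E16.5 segments. The E14.5 clusters of that name also held 501 cells with chondrocyte markers, so they set no clear line between the classes. Over the last 3 libraries alone the same 4 genes were called, Mest at 0.66 (adjusted p = 0.00266) and Cdkn1c at -0.79 (adjusted p = 7.26e-04), and with them Dlk1 (-0.74, adjusted p = 0.0113) and Meg3 (-0.38, adjusted p = 0.0240), both lower. Among all genes 2455 of 15351 were called there. Nnat did not pass over the 5 libraries (0.89, adjusted p = 0.120), with 1071, 814, 445, 174 and 165 against 886, 702, 476, 35.1 and 54.2 CPM, higher in 4 of 5, with the exception of E14.5. Dlk1 did not pass (-0.44, adjusted p = 0.104) and was called lower without E12.5 (adjusted p = 0.0452). Among 39 other imprinted genes, 9 were called lower, Phactr2 (-0.82) and Peg10 (-0.56) most, and 3 higher, H13 (0.40) among them. Igf2, Igf2r, Grb10 and Gnas did not pass. Pericyte markers were frequent enough in both E16.5 libraries alone, and no test was made.

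**Figure D3:**
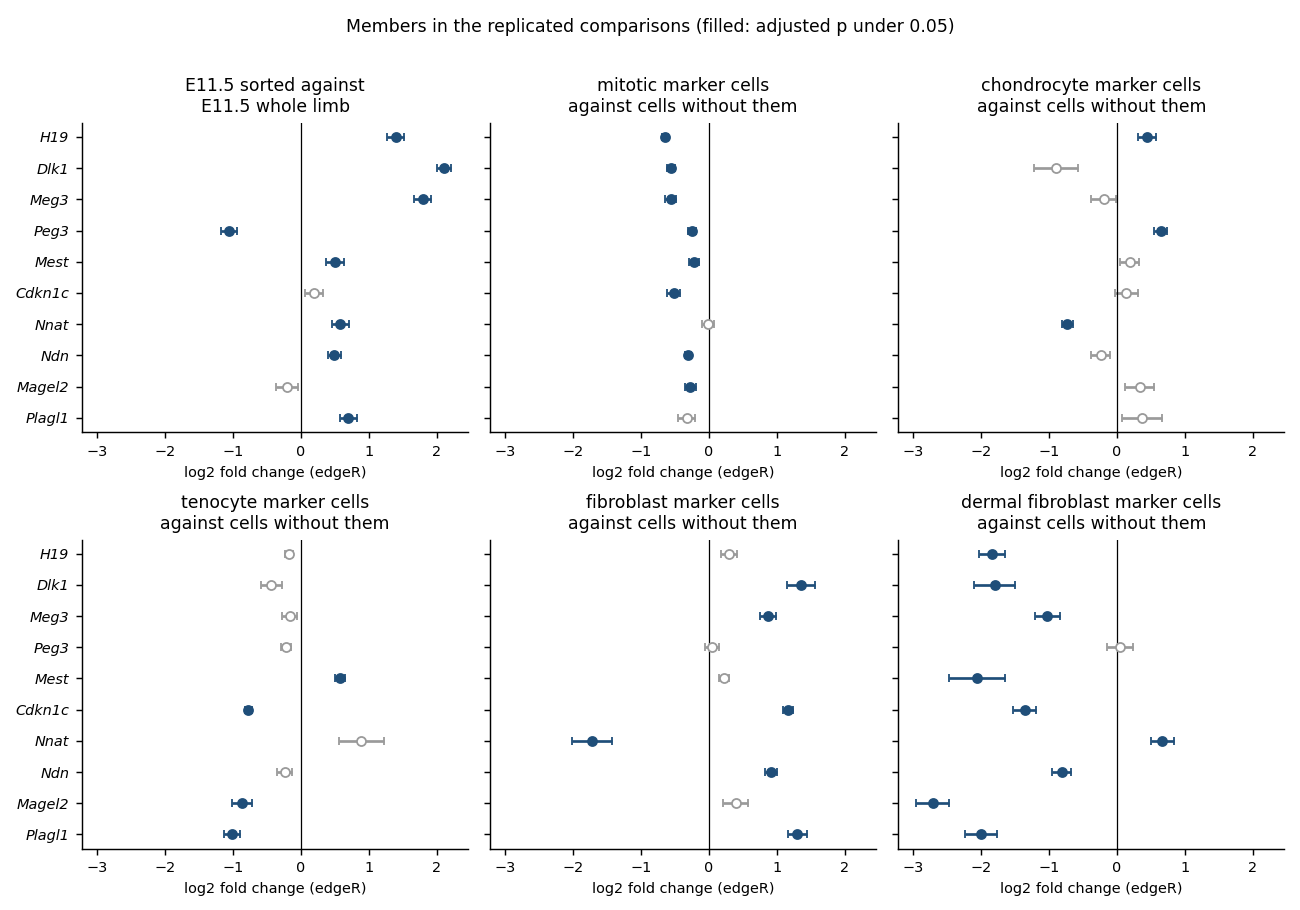
Points give the edgeR log2 fold change of each gene with its standard error, for E11.5 sorted against whole limb cells and for 5 comparisons of marker cells with cells lacking the markers of that class. Filled points have an adjusted p under 0.05 over all genes tested. Dermal fibroblast marker cells lie below 0 for 8 genes and fibroblast marker cells above 0 for 5 of the called genes.

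Named classes give the same genes by cell type. The imprinted genes were left out of the genes used to cluster cells, and a named class of at least 50 cells in 1 sorted library made 26 groups. Cells of unnamed clusters are in none of these, and some held more. The muscle-led cluster had Plagl1 at 1065 and 1225 CPM and Ndn at 386 and 389 CPM in the E16.5 segments, and Dlk1 at 5783 and Magel2 at 20.6 CPM proximally. An unnamed cluster of 2092 E14.5 cells, led by Prss12, Dmrt2 and Dkk2, had Dlk1 at 4391 and Cdkn1c at 4342 CPM. The ranges below are over the 26 groups. Plagl1 ranged from 28.6 CPM in mitotic-like E11.5 cells to 1051 CPM in fibroblast-like E16.5 proximal cells. In the latter library it was at 210.2 CPM in tenocyte-like cells. Nnat ranged from 1211 CPM in early mesenchymal progenitor-like E11.5 cells to 15.1 CPM in fibroblast-like E16.5 proximal cells. The E16.5 class with the most Nnat was tenocyte-like, at 218 CPM proximally and 151 CPM distally. Mest ranged from 259 CPM in dermal fibroblast-like E16.5 distal cells to 3288 CPM in perichondrial-like E13.5 cells. Dlk1 was lowest in distal limb mesenchyme-like E14.5 cells (227 CPM) and perichondrial-like E12.5 cells (415 CPM). Its level was 1815 CPM in early mesenchymal progenitor-like E12.5 cells and 5589 CPM in fibroblast-like E16.5 proximal cells. Cdkn1c ranged from 1203 CPM in mitotic-like E11.5 cells to 8552 CPM in fibroblast-like E16.5 proximal cells, the highest level of the set in any group. Peg3 and Meg3 were highest in chondrocyte-like E16.5 proximal cells, at 2033 and 6296 CPM, and H19 in chondrocyte-like E16.5 distal cells, at 3931 CPM. All 3, like Dlk1, were lowest in distal limb mesenchyme-like E14.5 cells, with H19 at 504, Meg3 at 1245 and Peg3 at 229 CPM. Ndn ran from 109 CPM in tenocyte-like E16.5 distal cells to 367 CPM in fibroblast-like E16.5 proximal cells, and Magel2 from 1.55 CPM in dermal fibroblast-like to 14.8 CPM in chondrocyte-like cells of E16.5 distal. Pericyte-like cells held Dlk1 at 3524 and 3531 CPM and Peg3 at 574 and 656 CPM.

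**Figure D4:**
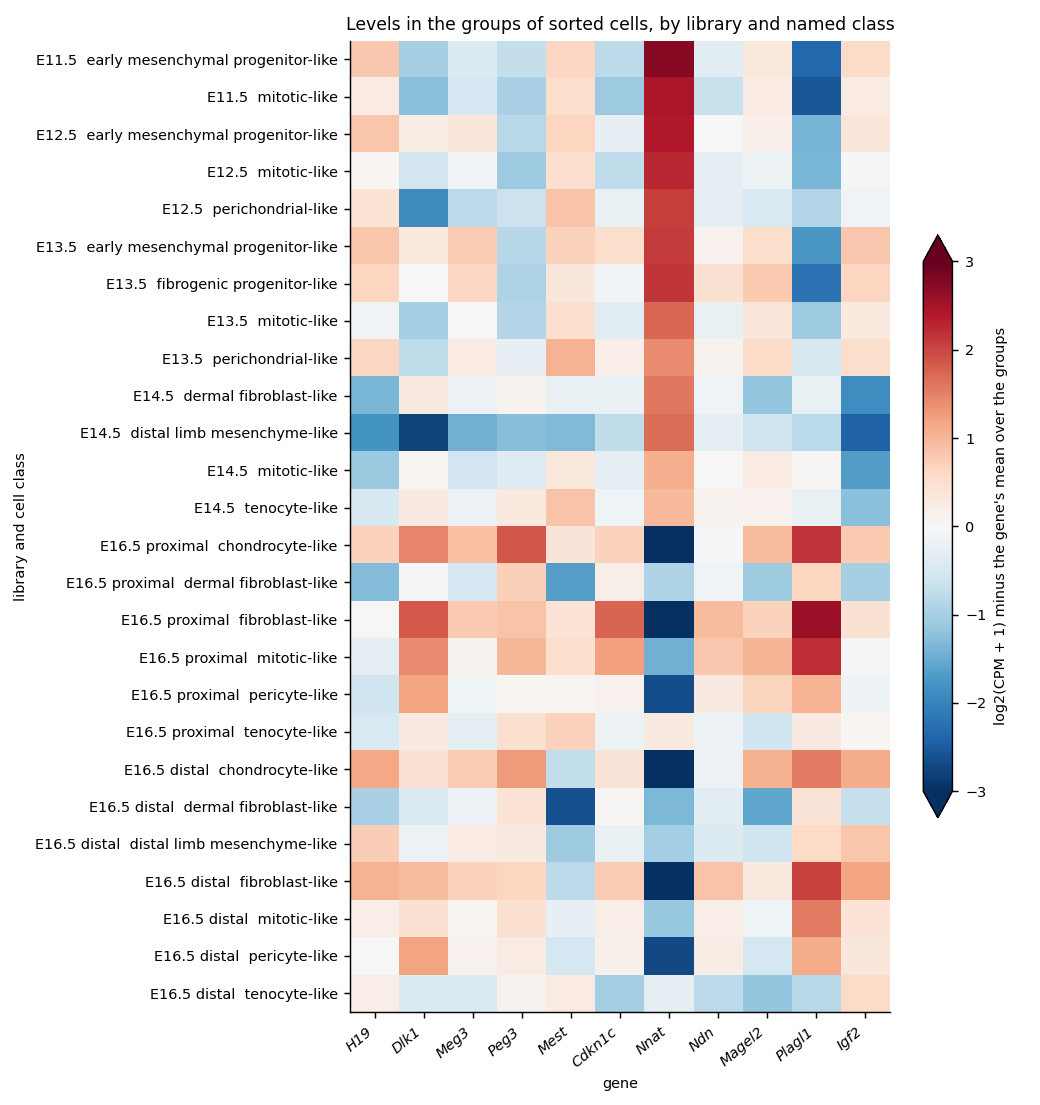
Each row is a named cell class of 1 sorted library and each column a gene, with colour for the log2 level relative to the mean of that gene over the 26 groups. Nnat is above its mean in groups up to E14.5 and Plagl1 below its mean in groups up to E13.5.

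Over the 26 groups, which share libraries, stages and kit, log2 levels of H19 and Igf2 had a Pearson correlation of 0.918, given as a description. It was 0.871 for Plagl1 and Peg3, 0.840 for Cdkn1c and Ndn and -0.914 for Plagl1 and Nnat. The neighbouring genes Dlk1 and Meg3 had 0.724, and Ndn and Magel2 had 0.511. Within libraries Plagl1 and Peg3 went together in part. In dermal fibroblast marker cells Plagl1 was lower in 4 of 4 libraries and Peg3 in 2. In fibroblast marker cells they were higher in 3 and 2 of 3 libraries, and in chondrocyte ones in 3 and 6 of 6. In tenocyte marker cells they were lower in 5 and 4 of 5 libraries, and in mitotic ones in 6 and 8 of 8.

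**Figure D5:**
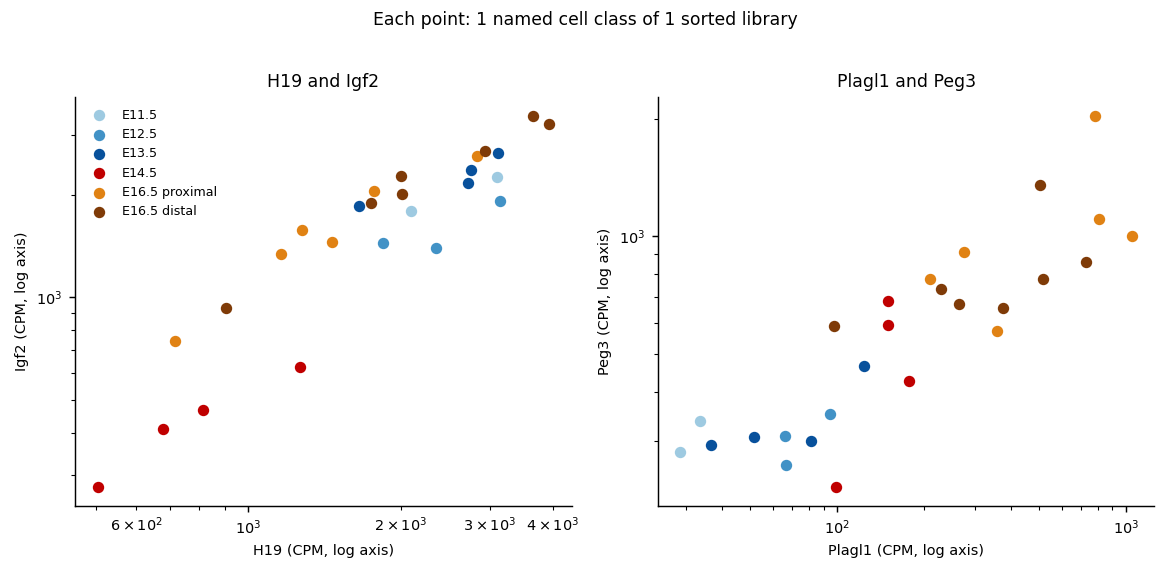
Each point is 1 named cell class of 1 sorted library, coloured by library, with CPM on both log axes. H19 and Igf2 line up across groups. Peg3 and Plagl1 rise together in part. Peg3 is highest in chondrocyte-like E16.5 proximal cells (2033 CPM, with Plagl1 at 781 CPM). Fibroblast-like cells of that library are highest in Plagl1 (1051 CPM) and have Peg3 at 1000.2 CPM.

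Genes outside both lists whose levels over the 26 groups were most like those of a member were picked among 5668 genes that reached 50 CPM. Plagl1 was nearest to Nupr1 (0.930), Arsi (0.925) and Cdkn1a (0.917), the last of which encodes the cell cycle inhibitor p21. For Peg3 the genes were Tbrg1 (0.925), Nucb2 (0.911) and Dnajc3 (0.909). Nnat went with H2afy2 (0.948), Mpnd (0.947) and Tmeff1 (0.939). For Cdkn1c they were Fuca2 (0.864), Itm2a (0.854) and Smoc2 (0.842), and for Mest Fastk (0.861), Cmas (0.846) and Meox2 (0.832). H19 was nearest to Eno1 (0.824), Use1 (0.782) and Gfpt2 (0.772), the first being a glycolytic enzyme. Dlk1 went with Nrk (0.836), Vldlr (0.801) and Smim1 (0.777), and Ndn with Bad (0.784), Anxa3 (0.783) and Vldlr (0.766). Correlations were lower for Meg3, with Ndel1 (0.709), Hcfc1r1 (0.674) and Rbp4 (0.669). Magel2, at low counts, had Tctex1d2 (0.802), Lman2 (0.754) and Wbp2 (0.733).

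In the mouse genome (GRCm38, GENCODE annotation) 5 genes of the set are on chromosome 7. H19 lies on chromosome 7, 142575529 to 142578143, minus strand, and Cdkn1c on chromosome 7, 143458339 to 143461050, minus strand. Peg3 is on chromosome 7, 6703892 to 6730431, minus strand. Ndn is on chromosome 7, 62346569 to 62350262, plus strand, and Magel2 on chromosome 7, 62377010 to 62381640, plus strand. Dlk1 lies on chromosome 12, 109452823 to 109463336, plus strand, and Meg3 on chromosome 12, 109541001 to 109571726, plus strand. Mest is on chromosome 6, 30723547 to 30748465, plus strand, and overlaps Copg2 of the other strand. Nnat is on chromosome 2, 157560078 to 157562522, plus strand, and overlaps Blcap of the other strand. Whether counting used strand is not given in the sources used here. Plagl1 is on chromosome 10, 13060504 to 13131694, plus strand.

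The promoter of Peg3 is shown because Plagl1 protein is known to bind the palindrome GGGGCCCC and the levels of both genes over groups were set side by side above. Windows from 250 bases before to 50 after a start were taken from RefSeq (GRCm38.p6), which gave 11 for 8 of the 10 genes, without H19 and Cdkn1c. Capitals mark GGGGCCCC, which reads the same on both strands.
Peg3, chr7:6730370-6730669, minus strand: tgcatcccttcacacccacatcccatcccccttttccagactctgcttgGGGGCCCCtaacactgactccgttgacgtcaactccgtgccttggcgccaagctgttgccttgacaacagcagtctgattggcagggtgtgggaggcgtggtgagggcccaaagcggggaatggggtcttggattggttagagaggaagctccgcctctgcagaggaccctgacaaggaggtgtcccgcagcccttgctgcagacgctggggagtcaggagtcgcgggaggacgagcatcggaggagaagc
The Peg3 window held 1 match and was the only one of the 11 to do so, against 1.08% of 32851 windows in all. The match is a description of letters and not a measured binding site.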

How the data were processed

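The deposited tables hold UMI counts per gene and cell, not normalized, which the authors made with Cell Ranger on a modified mm10 genome. Cells under 3000 UMIs or over 10% mitochondrial UMIs were left out. Libraries held 32957305 to 236408650 UMIs. Cells were clustered with scanpy 1.11.5 without imprinted genes, and classes named from fixed markers. Counts were summed per library, or per library and marker arm, and tested with edgeR 4.0.16 (R 4.3.3, quasi-likelihood, TMM, low counts filtered) at an adjusted p of 0.05 (Benjamini-Hochberg, all genes tested). DESeq2 1.42.0, other filters, cells and marker limits were alternatives. The whole limb, mitotic and chondrocyte tests were tried on simulated counts with 200 genes changed 2-fold. For mitotic and chondrocyte marker cells edgeR recovered 200 and 180 of them, with 5 and 19 false calls, and DESeq2 made 16 and 44 false calls. Both arms were given the same spread, so this cannot check the lone sorted library. The tenocyte, fibroblast and dermal fibroblast tests were not simulated. The labels do not say whether the whole limb replicates come from separate embryos, so p-values measure the spread between these libraries, which may be technical. A ratio of single libraries has an exact interval and was read at 2-fold, over genes at 5 CPM or more. All members are named, with the 2 other imprinted genes that rose and the 2 that fell most at 50 CPM or more, and Igf2, Igf2r, Grb10 and Gnas. Members and lists were chosen with earlier results of these data known.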

Additional observations from a re-analysis of the deposited data

Results flagged for a closer look

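In chondrocyte marker cells 2 genes lay on opposite sides of the cells without these markers in libraries up to E13.5 and from E14.5 on. The log2 ratio of Meg3, the long non-coding RNA next to Dlk1, was -0.78 at E11.5, -0.97 at E12.5 and -0.025 at E13.5. It was 0.10 in the E14.5 library, 0.48 in E16.5 proximal and 0.046 in E16.5 distal cells. Plagl1, the zinc finger gene, went the other way, with ratios of 1.58, 0.79 and 1.34 in the 3 earlier libraries and -0.51, -0.19 and -0.42 in the 3 later ones. Neither difference was tested. The earlier libraries were made with kit v2 and the later ones with v3, so kit and stage cannot be told apart. The marker cells also lay in unlike clusters, early mesenchymal progenitor-like, perichondrial-like and mitotic-like ones up to E13.5, tenocyte-like ones at E14.5 and chondrocyte-like ones at E16.5 for the most part.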

How the results depend on the processing

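Counts of genes called or past 2-fold stayed within 1.5 times the reported count in 140 of 156 alternatives. A count can stay the same while genes swap, as Plagl1 and Dlk1 did from E11.5 to E12.5 with thinned cells. Of 1460 values of single genes, 297 moved beyond counting error, 51 lost a call and 21 gained one. Without the library block no gene of the set was called in mitotic, chondrocyte, tenocyte or fibroblast marker cells (0, 0, 0 and 0) and 3 were in dermal fibroblast marker cells. Among all genes tested, 560 of 13794, 409 of 13661, 31 of 13847, 45 of 15621 and 623 of 14054 were called, in the same order. At 1.5-fold, 3 genes passed from E11.5 to E12.5 (13.7% of all genes), 1 from E12.5 to E13.5 (11.4%), 5 from E13.5 to E14.5 (31.4%) and 5 between the E16.5 segments (23.4%). Between the segments 4 passed 2-fold with TMM scaling, 0 with all filtered cells, 0 without the cluster led by muscle fibre genes, 1 within chondrocyte-like, 1 within pericyte-like, 1 within tenocyte-like and 0 within dermal fibroblast-like cells. With 2 markers in place of 3 the calls of H19 in chondrocyte, Nnat in fibroblast and Mest and Plagl1 in dermal fibroblast marker cells were lost (adjusted p = 0.0627, 0.0700, 0.0795 and 0.0910, edgeR). Calls were gained by Cdkn1c at E11.5 with 5000 UMIs a cell (adjusted p = 0.0499), by Dlk1 with 2 markers in chondrocyte (0.0180) and with no filter in chondrocyte and tenocyte marker cells (0.0479 and 0.0422), by Dlk1 and H19 in tenocyte marker cells against cells with fewer than 3 markers (0.0354 and 0.0162), by Mest with 2 markers in fibroblast marker cells (0.0381), and by Plagl1 in mitotic marker cells under 5 further settings (0.0272 to 0.0479). Leaving out 1 library at a time gave 7 to 9 calls in mitotic, 2 to 3 in chondrocyte, 4 to 5 in tenocyte, 6 to 7 in fibroblast and 8 to 9 in dermal fibroblast marker cells. Signs changed for 24 of 1460 values of single genes, none of them called in a test. Of these 7 were ratios of single libraries: with TMM scaling Mest from E11.5 to E16.5 proximal (0.22) and from E13.5 to E14.5 (0.073) and Meg3 between the segments (-0.045), and Mest from E12.5 to E13.5 with another total (0.0087) or each cell's own CPM averaged (0.0063) and from E14.5 to E16.5 proximal with all filtered cells (-0.16) or without the muscle-led cluster (-0.15). For Nnat in mitotic marker cells the log2 fold change ran from -0.11 to 0.032 with 1 library left out (0.032 without E11.5, 0.0082 without E12.5, 0.0023 without E14.5, 0.019 and 0.018 without whole limb replicate 1 and 2). For Peg3 it ran from -0.032 to 0.19 in fibroblast and -0.15 to 0.28 in dermal fibroblast marker cells, where it was -0.15 without E13.5 and -0.048 without E14.5. Without the block Peg3 was at -0.0016 and -0.14 in these, Cdkn1c at -0.062 and Plagl1 at -0.14 in chondrocyte marker cells. With no filter on low counts Peg3 was at -0.00014 in dermal fibroblast marker cells. With 2 markers in place of 3, Cdkn1c was at -0.046 in chondrocyte, H19 at 0.019 and Meg3 at 0.062 in tenocyte marker cells. The log2 ratio of Magel2 between E11.5 sorted and whole limb cells was -0.068 to 0.011 without either whole limb library. The cause of these changes was not tested. No paired analysis was possible because the sorted groups have 1 library each, so that no group shares 2 replicate numbers with another. This concerns comparisons between libraries, since the marker cell tests pair the cells of a library through its block. The planned doublet caller marked 0 to 4 cells a library and had not worked, so cells with the 5% highest doublet scores were left out instead, as was the muscle-led cluster, here and in the marker cell tests, whole limb libraries were added to the chondrocyte and dermal fibroblast tests and E12.5 and E13.5 left out of the tenocyte test, and cells with no mitotic marker were compared at E11.5. These alternatives were chosen after seeing the data. Depth limits Magel2 most, with 252 to 2526 UMIs a library.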
